A study of Mus musculus with 10 samples.

Results

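The NRF2 antioxidant response was followed through 9 genes that were chosen by name from the 43346 genes of the counts table, namely *Nfe2l2*, *Keap1*, *Hmox1*, *Nqo1*, *Gclc*, *Gclm*, *Txnrd1*, *Srxn1* and *Slc7a11*. All 9 were found once in the table, and all 9 passed the filter on low counts in every comparison. RNA had been sequenced from O9-1 cells, a tetraploid mouse line derived from the cranial neural crest, with genotype WT (4 biologically independent samples), and from edited O9-1 lines with genotype Kat5 knockout (3 clones) or Ep400 knockout (3 clones). Kat5 is the histone acetyltransferase and Ep400 the chromatin remodeling ATPase of the Tip60/Ep400 complex. All cells were grown on Matrigel in conditioned O9-1 medium without further treatment, and each knockout library is 1 clone that arose from a single sorted cell after transfection with Cas9 and a guide. Clones Ep400/2 and Ep400/3 retain *Ep400* alleles with in-frame deletions at the ATP binding site, whereas the remaining clones carry frameshifts. The paper states that these deletions should at the least inactivate Ep400, and that immunocytochemistry found no Ep400 protein in any of its Ep400 clones. The comparisons ask how loss of either subunit changes gene expression in these cells. Editing and cloning go with the knockout genotypes, so their effects cannot be told apart from those of the loss.

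NRF2, the protein encoded by *Nfe2l2*, is a basic leucine zipper transcription factor that pairs with small MAF proteins and binds antioxidant response elements near genes for glutathione synthesis, thioredoxin recycling, quinone reduction and heme breakdown. In unstressed cells KEAP1 holds NRF2 and hands it to a CUL3 ubiquitin ligase for degradation. Oxidants and electrophiles modify cysteines of KEAP1, and NRF2 then accumulates, so that its activity is set to a large part at the level of the protein, which RNA counts do not measure.

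The antioxidant response element contains the core TGACNNNGC. This core was searched on both strands of the RefSeq promoters (GRCm38.p6), which hold 250 bases before and 50 bases after each start. Promoters were present for 7 of the 9 genes, with 9 promoters in all, because *Txnrd1* has 3 starts. The core occurred in 4 of these 9 promoters, and in 12.4% of the 32851 promoters of all genes. The 4 matches are shown because this core is the kind of sequence that NRF2 binds, and a match is no proof of a site. Each is printed on the strand of its gene with 10 bases on either side, and the capitals mark the core, which lies on the opposite strand in *Gclm*, *Txnrd1* and *Srxn1* and therefore reads as its reverse complement there.
*Nfe2l2*, chr2:75704885-75704913, minus strand: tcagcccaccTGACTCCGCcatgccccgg
*Gclm*, chr3:122245413-122245441, plus strand: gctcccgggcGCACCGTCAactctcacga
*Txnrd1*, chr10:82859104-82859132, plus strand: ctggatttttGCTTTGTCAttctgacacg
*Srxn1*, chr2:152105542-152105570, plus strand: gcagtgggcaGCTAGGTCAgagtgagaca
The core began 240 bases before the start in *Nfe2l2*, 134 before in *Gclm* and 92 before in *Txnrd1*, and at base 29 after the start in *Srxn1*. No match was present in the windows of *Keap1*, *Nqo1* and *Slc7a11*, which says only that these letters are not in those 300 bases. *Hmox1* and *Gclc* had no entry.

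Values are given in CPM, the usual unit for read counts relative to library size, with library sizes scaled by TMM over all 10 libraries. Between 30968945 and 48301792 reads per library had been counted on genes. The targeted genes followed the labels. *Kat5* ranged from 48.8 to 57.5 CPM in wildtype libraries and from 16.4 to 23.2 CPM after its own knockout, and *Ep400* from 157 to 165 and from 54.7 to 61.4 CPM, respectively. Of 12 markers of cranial neural crest and its mesenchyme, 10 had a mean over 10 CPM. The early neural crest markers *Sox10*, *Foxd3* and *Pax7* had 0 counts in every library, which allows at most 0.0661 to 0.0989 CPM per library at a floor of 3 counts. *Pax3*, also an early marker, had 0.0867 to 0.183 CPM in the wildtype libraries and at most 0.661 CPM in the Kat5 ko clones. It had 6.80, 1.31 and 6.30 CPM in clones Ep400/1, Ep400/2 and Ep400/3. The summed level of the 12 markers ranged from 1628 to 1940 CPM in wildtype cells, from 1608 to 1868 in the Kat5 ko clones and from 2365 to 3695 in the Ep400 ko clones. Single markers went both ways in the Ep400 ko clones. Means in wildtype and Ep400 ko libraries were 827 and 1335 CPM for *Prrx1* and 123 and 588 CPM for *Pdgfra*. For *Ets1* they were 103 and 69.7 CPM, and for *Sox9* 65.8 and 49.8 CPM. The part of these markers in the differences below was not tested. Wildtype library 3 stood apart from the other wildtype libraries in *Msx1*, with 48.98 CPM against 5.26 to 7.46. Marker sums of epithelium, endothelium, macrophages and pluripotent cells stayed at or below 7.81 CPM in all libraries. Within such bulk libraries, a different share of cells with a transcript and a different amount of it per cell cannot be told apart.

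In wildtype cells all 9 genes were expressed. Per kilobase of annotated exon, *Nfe2l2* had the highest level with 54.8 ± 6.52 CPM per kb (SD, n = 4), followed by *Srxn1* with 42.7 ± 10.5, *Txnrd1* with 35.75 ± 6.61, *Nqo1* with 32.4 ± 12.4 and *Hmox1* with 28.1 ± 11.5 CPM per kb. *Keap1* had 14.9 ± 1.40, *Gclc* 14.4 ± 2.29, *Gclm* 8.85 ± 1.06 and *Slc7a11* 3.41 ± 1.43 CPM per kb. The wildtype ranges of neighbours in this order overlapped from *Nfe2l2* to *Hmox1* and between *Keap1* and *Gclc*. They did not overlap between *Hmox1* and *Keap1*, between *Gclc* and *Gclm*, or between *Gclm* and *Slc7a11*. The spread among wildtype samples differed between genes: the highest sample exceeded the lowest 1.23-fold for *Keap1* and 1.31-fold for *Nfe2l2*, but 2.73-fold for *Slc7a11*, 2.48-fold for *Nqo1* and 2.16-fold for *Hmox1*.

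**Figure D1:**
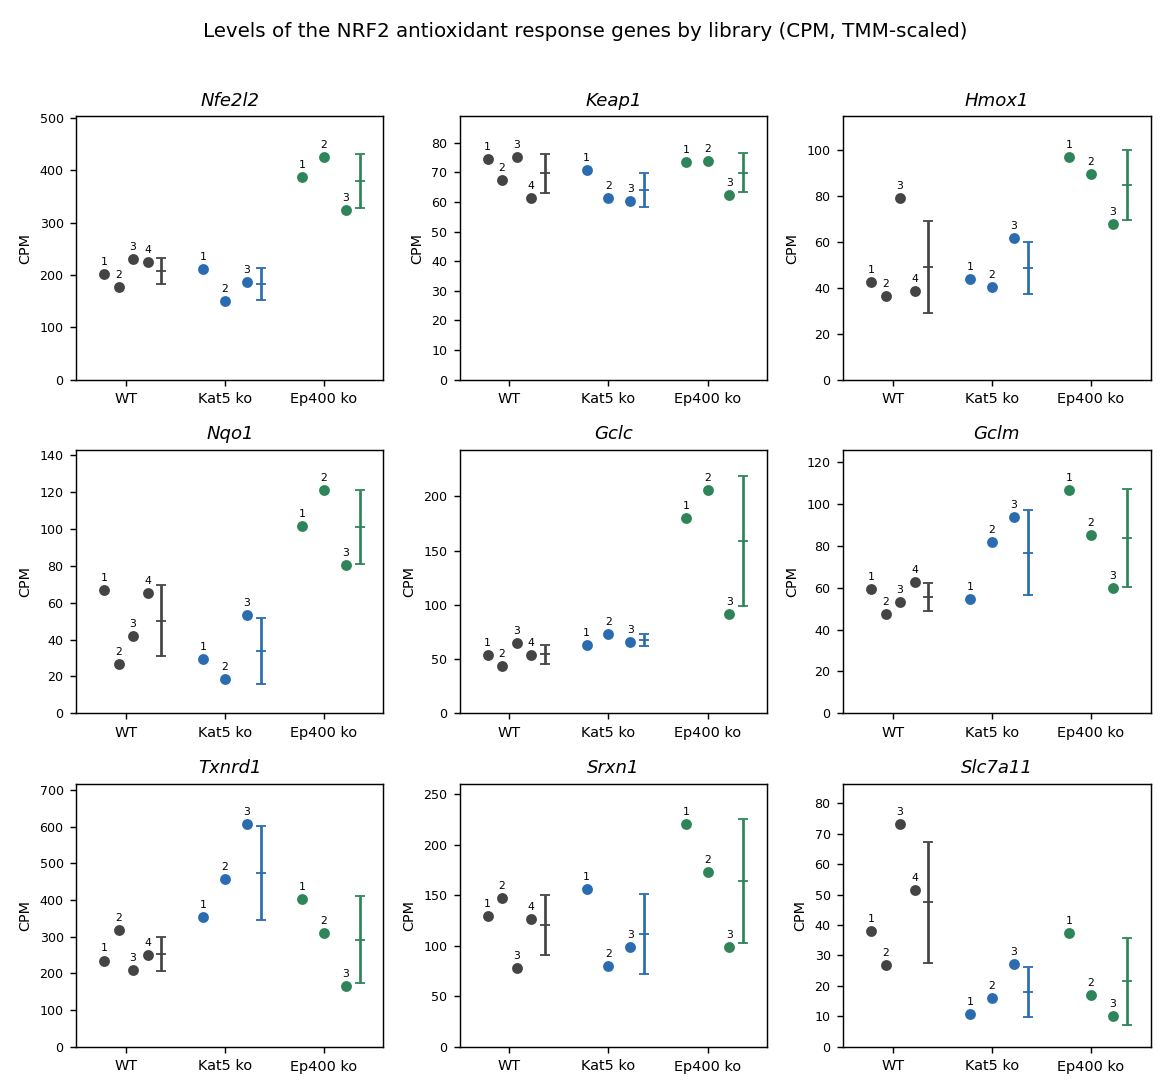
Levels of the 9 genes in CPM (y axes, from 0) in the 4 wildtype, 3 Kat5 ko and 3 Ep400 ko libraries; each point is 1 library with its number, and the bars beside the points are mean ± SD. The Ep400 ko clones lie above all wildtype libraries for *Nfe2l2*, *Nqo1* and *Gclc*, the Kat5 ko clones do so for *Txnrd1*, and clone Ep400/3 is the lowest Ep400 ko clone in every panel.

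In the Ep400 ko clones, transcripts of the regulator NRF2 itself and of the catalytic subunit of glutathione synthesis rose. *Nfe2l2* and *Gclc* passed the test, while *Nqo1* and *Hmox1* were higher on average without passing it and *Keap1* had almost the same mean as in wildtype cells. *Slc7a11* had a lower mean. In total, 8 of the 9 genes had a log2-fold change above 0, with a median of 0.59. Over all 13836 genes tested, 7344 were above 0 and the median was 0.043. The 8 genes include *Keap1*, whose value of 0.0032 was below 0 with several other settings. With a limit of 0.05 on the adjusted p of the quasi-likelihood test in edgeR, 2 of the 9 genes were called, both higher, and 6 had an unadjusted p under 0.05. Over all genes tested, 13.9% were called, 8.09% as higher, and 32.3% had an unadjusted p under 0.05. DESeq2 called 3 of the 9 genes and 19.4% of all genes. All 3 clones lay above all wildtype libraries for 3 of the 9 genes, as for 16.1% of all genes, and below them for 0 of the 9, as for 14.1% of all genes.

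*Nfe2l2* (ENSMUSG00000015839, protein coding, chromosome 2 from 75675513 to 75704641 on the minus strand of GRCm38) had 201, 176, 230 and 225 CPM in wildtype libraries 1 to 4, and 387, 426 and 325 CPM in clones Ep400/1, Ep400/2 and Ep400/3. Every Ep400 ko clone was above every wildtype library. This gave a log2-fold change of 0.87 (SE 0.16, edgeR adjusted p = 0.0116), a 1.82-fold increase that stayed past the threshold whichever of the 7 libraries was omitted, with adjusted p between 0.0105 and 0.0466. Genes located on chromosome 2 were shifted by a median of 0.14, 0.072 and 0.13 on the log2 scale in these clones, and with an offset for such shifts the log2-fold change was 0.75 (edgeR adjusted p = 0.0231).

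*Keap1* (ENSMUSG00000003308, chromosome 9 from 21229730 to 21239361, minus strand), which encodes the inhibitor of NRF2, had 74.6, 67.5, 75.3 and 61.4 CPM in the wildtype libraries and 73.5, 74.0 and 62.3 CPM in the Ep400 ko clones. The clones lay within the wildtype range. Its log2-fold change was 0.0032 with a 95% confidence interval from −0.30 to 0.31 (edgeR adjusted p = 0.99). The sign of this value depended on the scaling, with 0.030 for library totals alone, −0.015 for relative log expression factors and −0.15 with chromosome offsets. The annotated antisense gene *Gm16754* overlaps *Keap1* and had at most 2.83% of its counts.

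The enzymes of glutathione synthesis were measured next. *Gclc* (ENSMUSG00000032350, chromosome 9 from 77754535 to 77794485, plus strand) encodes the catalytic and *Gclm* (ENSMUSG00000028124, chromosome 3 from 122245557 to 122270732, plus strand) the modifier subunit of glutamate-cysteine ligase, which carries out the rate-limiting step. *Gclc* had 53.8, 44.0, 65.1 and 53.9 CPM in the wildtype libraries and 180, 206 and 91.1 CPM in clones Ep400/1, Ep400/2 and Ep400/3. All clones were above the wildtype range, but clone Ep400/3 much less so than the others. The log2-fold change of *Gclc* was 1.55 (SE 0.27, edgeR adjusted p = 0.00963), corresponding to a 2.93-fold increase. It remained past the threshold with any 1 library left out, but not with the replicate number as a block. Genes located on chromosome 9 were shifted by a median of 0.18, 0.078 and 0.18, and the log2-fold change was 1.41 (edgeR adjusted p = 0.0169) with chromosome offsets.

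*Gclm* had 59.2, 47.45, 53.4 and 62.65 CPM in the wildtype libraries and 107, 85.1 and 59.7 CPM in the Ep400 ko clones. Clones Ep400/1 and Ep400/2 were above the wildtype range and clone Ep400/3 was within it. On average *Gclm* was higher by 0.59 on the log2 scale (SE 0.20, edgeR adjusted p = 0.0844), and without clone Ep400/3 it was 0.78 with an adjusted p of 0.0233. In no other fit was *Gclm* past the threshold.

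The balance of both subunits was also examined as the ratio of *Gclc* to *Gclm* reads within each library, which does not depend on the scaling of libraries. This ratio was chosen after the values had been seen. It was 0.908, 0.927, 1.22 and 0.860 in the wildtype libraries, 1.15, 0.895 and 0.701 in the Kat5 ko clones, and 1.68, 2.42 and 1.53 in the Ep400 ko clones. The Ep400 ko clones, including Ep400/3, did not overlap with either of the other groups. The mean log2 ratio of the Ep400 ko clones was 0.92 above that of wildtype cells and 1.03 above that of the Kat5 ko clones, which overlapped with wildtype cells at a difference of −0.11. Because of how the ratio was chosen, these values are a description without a test.

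**Figure D2:**
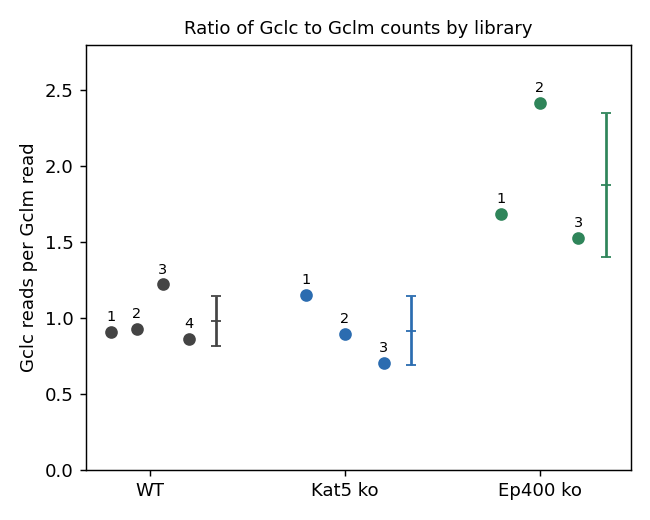
Number of *Gclc* reads per *Gclm* read (y axis, from 0) in each library of the 3 groups; points are libraries with their number and bars are mean ± SD. The ratios of the Ep400 ko clones, from 1.53 to 2.42, lie above the highest wildtype value of 1.22 and the highest Kat5 ko value of 1.15.

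*Slc7a11* (ENSMUSG00000027737, chromosome 3 from 49892526 to 50443614, minus strand) encodes the transport subunit of the cystine-glutamate exchanger, which supplies the cysteine for glutathione, and is known as a target of ATF4 as well as of NRF2. It had 38.1, 26.9, 73.3 and 51.6 CPM in the wildtype libraries and 37.4, 17.0 and 10.03 CPM in clones Ep400/1, Ep400/2 and Ep400/3. Clones Ep400/2 and Ep400/3 were below every wildtype library, whereas Ep400/1 was within their range. The resulting log2-fold change of *Slc7a11* was −1.14 (SE 0.48, edgeR adjusted p = 0.137). Without clone Ep400/1 it was −1.82 with an adjusted p of 0.0342, and no other fit was past the threshold. Reads of the overlapping antisense gene *Gm37854* amounted to at most 4.12% of those of *Slc7a11*.

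*Nqo1* (ENSMUSG00000003849, chromosome 8 from 107388225 to 107403206, minus strand), whose product reduces quinones and which is widely used as a reporter of NRF2 activity, had 66.7, 26.9, 42.0 and 65.5 CPM in the wildtype libraries and 102, 121 and 80.5 CPM in the Ep400 ko clones. All clones were above all wildtype libraries, which themselves spread widely. The estimated log2-fold change was 1.01 (SE 0.31, edgeR adjusted p = 0.061). It was past the threshold with DESeq2 (0.98, adjusted p = 0.0251) and without a filter on low counts (0.97, edgeR adjusted p = 0.0492). With the other settings it was not (edgeR adjusted p from 0.0511 to 0.115), nor with any 1 library left out (0.0684 to 0.16). Genes located on chromosome 8 were not shifted upward in these clones, with medians of −0.21, −0.0005 and −0.14 on the log2 scale.

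*Hmox1* (ENSMUSG00000005413, chromosome 8 from 75093621 to 75100589, plus strand) encodes heme oxygenase 1, which breaks heme down to biliverdin, carbon monoxide and iron and is repressed by BACH1 when heme is low. It had 42.5, 36.7, 79.1 and 38.7 CPM in the wildtype libraries and 97.3, 89.9 and 67.9 CPM in the Ep400 ko clones. Wildtype library 3 stood apart from the other wildtype libraries and above clone Ep400/3. The log2-fold change of *Hmox1* was 0.79 (SE 0.28, edgeR adjusted p = 0.0944), and 1.10 with an adjusted p of 0.0122 without wildtype library 3. With chromosome offsets it was 0.93 (edgeR adjusted p = 0.0493). No other setting and no other omitted library brought *Hmox1* past the threshold.

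*Txnrd1* and *Srxn1* of the thioredoxin branch did not pass the test in the Ep400 ko clones. *Txnrd1* (ENSMUSG00000020250, chromosome 10 from 82833951 to 82897712, plus strand), the cytosolic thioredoxin reductase, had 402, 310 and 165 CPM in clones Ep400/1, Ep400/2 and Ep400/3, against 235, 319, 210 and 249 CPM in the wildtype libraries. Clone Ep400/1 was above and clone Ep400/3 below the whole wildtype range. For *Txnrd1* the log2-fold change was 0.21 with a 95% confidence interval from −0.44 to 0.85 (edgeR adjusted p = 0.655), and −0.097 without clone Ep400/1. *Srxn1* (ENSMUSG00000032802, chromosome 2 from 152105516 to 152111376, plus strand), a sulfiredoxin that restores overoxidized peroxiredoxins, had 221, 173 and 98.9 CPM in these clones and 130, 148, 78.2 and 126 CPM in the wildtype libraries. Its log2-fold change was 0.45 with an interval from −0.22 to 1.11 (edgeR adjusted p = 0.32).

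The Ep400 ko clones differed among themselves, and the same clone was lowest for each of the 9 genes. Clone Ep400/1 was the highest for 5 and clone Ep400/2 for 4 of them. Clone Ep400/3 had the lowest level of the 3 clones for 9 of the 9 genes, whereas it was the lowest clone for 36.6% of 14079 genes. With library totals alone as scaling, these values were 9 of 9 genes and 29.4%. The highest clone exceeded the lowest 3.73-fold for *Slc7a11*, 2.44-fold for *Txnrd1*, 2.26-fold for *Gclc* and 2.23-fold for *Srxn1*, but only 1.31-fold for *Nfe2l2* and 1.19-fold for *Keap1*. The low position of clone Ep400/3 was noticed in the data. Other genes of the pathway went both ways. Clone Ep400/3 was the highest of the 3 for *Gstm1* (651 against 256 and 341 CPM) and *Aox1* (80.5 against 42.0 and 23.9 CPM). It was the lowest for *Fth1* (2763 against 3696 and 3085 CPM) and *G6pdx* (107 against 135 and 156 CPM). Library Ep400/3 also had the highest share of mitochondrial counts, with 3.24% against 0.893% to 2.43% in the other 9 libraries, and the part of this in the low levels of the clone was not tested.

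In the Kat5 ko clones, none of the 9 genes was called. The largest differences were a higher mean of *Txnrd1* and a lower mean of *Slc7a11*, and *Nfe2l2* and *Keap1* differed little from wildtype cells. With edgeR, 0 of the 9 genes passed the limit on the adjusted p and 2 had an unadjusted p under 0.05, namely *Txnrd1* and *Slc7a11*. DESeq2 called these 2 genes. Among all 13434 genes tested, 0.499% were called by edgeR (0.127% as higher, 0.372% as lower), 22.3% had an unadjusted p under 0.05 and DESeq2 called 9.78%. The log2-fold change was above 0 for 3 and below 0 for 6 of the 9 genes, with a median of −0.14, beside 0.0 over all genes tested. For 0 of the 9 genes were all clones below the wildtype range, as was so for 10.2% of all genes.

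*Txnrd1* had 353, 458 and 608 CPM in clones Kat5/1, Kat5/2 and Kat5/3. It was the only one of the 9 genes for which all Kat5 ko clones were outside the wildtype range, a pattern in this direction that 9.67% of all genes had. The log2-fold change was 0.87 (SE 0.21, edgeR adjusted p = 0.0816). It was past the threshold with DESeq2 (0.88, adjusted p = 0.0101), and in edgeR without clone Kat5/1 (1.04, adjusted p = 0.013). No other fit was past it.

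*Slc7a11* had 10.9, 16.0 and 27.2 CPM in the Kat5 ko clones. Clones Kat5/1 and Kat5/2 were below all wildtype libraries and clone Kat5/3 was just above wildtype library 2. Its log2-fold change was −1.43 (SE 0.40, edgeR adjusted p = 0.104, and 0.00795 with DESeq2). Leaving out 1 library at a time gave values from −1.84 to −1.13 that were not past the threshold.

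*Nfe2l2* had 212, 150 and 186 CPM in clones Kat5/1, Kat5/2 and Kat5/3, and its log2-fold change of −0.22 had a 95% confidence interval from −0.59 to 0.16 (edgeR adjusted p = 0.47). The groups overlapped. *Keap1* had 70.7, 61.2 and 60.4 CPM and a log2-fold change of −0.15 with an interval from −0.47 to 0.17 (edgeR adjusted p = 0.553). *Nqo1* had 29.4, 18.4 and 53.4 CPM, a log2-fold change of −0.61 and an interval from −1.56 to 0.34 (edgeR adjusted p = 0.418).

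*Gclc* had 62.7, 73.4 and 65.8 CPM in the Kat5 ko clones, overlapping with wildtype library 3 (log2-fold change 0.28, edgeR adjusted p = 0.325). *Gclm* had 54.45, 82.0 and 93.9 CPM (log2-fold change 0.43, edgeR adjusted p = 0.241). Clones Kat5/2 and Kat5/3 were above the wildtype range of *Gclm* and clone Kat5/1 was within it. Without clone Kat5/1 the log2-fold change was 0.63 with an adjusted p of 0.0286, and no other fit was past the threshold. *Hmox1* had 44.0, 40.3 and 61.8 CPM and a log2-fold change of −0.046 with an interval from −0.72 to 0.63, which was 0.29 without wildtype library 3. *Srxn1* had 156, 79.9 and 98.9 CPM and a log2-fold change of −0.14 with an interval from −0.78 to 0.51.

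**Figure D3:**
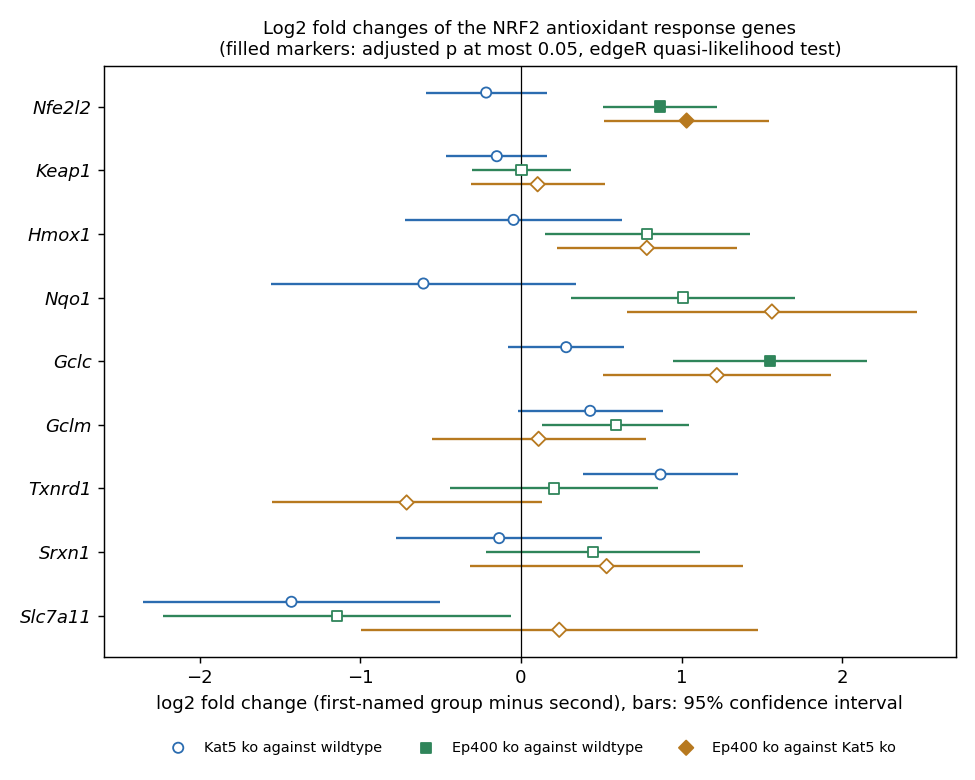
Log2-fold changes of the 9 genes (x axis) with 95% confidence intervals (bars) in the comparisons of each knockout with wildtype and of Ep400 ko with Kat5 ko clones; filled markers are past the threshold in edgeR. Filled markers are present for *Nfe2l2* (0.87 and 1.03) and *Gclc* (1.55), and *Slc7a11* is below 0 in both comparisons with wildtype.

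Both comparisons above share the wildtype libraries, so the knockouts were also compared directly. Of the 9 genes, *Nfe2l2* was called, with a log2-fold change of 1.03 in Ep400 ko over Kat5 ko clones (SE 0.22, edgeR adjusted p = 0.0414). Among all 13587 genes tested, 7.32% were called, 4.34% as higher and 2.97% as lower. The call of *Nfe2l2* was kept in 1 of the 6 fits with a library left out, without clone Kat5/1 (1.15, edgeR adjusted p = 0.0285), and was lost in the others, with log2-fold changes from 0.90 to 1.13 and adjusted p from 0.0716 to 0.15. The Ep400 ko clones were above all Kat5 ko clones for 4 of the 9 genes, and for 20.5% of all genes, while they were below them for 0 of the 9 and for 18.0% of all genes. Besides *Nfe2l2* these were *Nqo1* (log2-fold change 1.56, edgeR adjusted p = 0.0523), *Gclc* (1.22, adjusted p = 0.0534) and *Hmox1* (0.78, adjusted p = 0.0754). With DESeq2, *Nqo1* and *Gclc* were called as well, at adjusted p of 0.00335 and 0.00876, among 19.1% of all genes.

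The remaining genes did not pass the test between the knockouts. *Txnrd1* had a log2-fold change of −0.71 with a 95% confidence interval from −1.55 to 0.13 (edgeR adjusted p = 0.21). For *Slc7a11* the value was 0.24 with an interval from −0.998 to 1.47, for *Gclm* 0.11 with −0.56 to 0.78, for *Srxn1* 0.53 with −0.32 to 1.38 and for *Keap1* 0.10 with −0.31 to 0.52. These intervals leave room for differences of either sign.

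Beyond the 9 genes, 58 further genes of the pathway were examined by role, of which 55 passed the filter in each comparison and *Gpx2*, *Ggt1* and *Gsta3* did not. In the Ep400 ko clones 4 of the 55 were called higher and 3 lower, with a median log2-fold change of −0.019, beside 8.09% of all genes called higher and 5.76% called lower. In the Kat5 ko clones 0 were called higher and 1 lower, with a median of −0.18, beside 0.127% and 0.372% of all genes.

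Both subunits of ferritin rose in the Ep400 ko clones. *Fth1*, the heavy subunit that oxidizes iron for storage, had 1326, 1240, 1402 and 1049 CPM in the wildtype libraries and 3696, 3085 and 2763 CPM in the Ep400 ko clones (log2-fold change 1.34, SE 0.18, edgeR adjusted p = 0.0044). *Ftl1*, the light subunit, had 1405, 1141, 1162 and 1220 CPM in wildtype cells and 2705, 2357 and 2392 CPM in the clones (1.01, SE 0.16, edgeR adjusted p = 0.00676). Both groups of libraries were well separated. Either gene stayed past the threshold with any 1 library left out, but not with the replicate number as a block. Genes located on chromosome 19, which holds *Fth1*, were shifted by a median of 0.29, 0.27 and 0.24 on the log2 scale in these clones. For chromosome 7, which holds *Ftl1*, the medians were 0.10, 0.037 and 0.056. Ferritin genes have processed copies elsewhere in the genome, so that part of their reads could be counted on other genes. The other 5 of the 7 genes for heme and iron handling did not pass the test.

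Among 15 tested genes for detoxification and export, *Cbr3*, a carbonyl reductase, was called higher in the Ep400 ko clones. It had 1.76, 2.69, 0.0261 and 1.64 CPM in the wildtype libraries and 25.0, 14.2 and 11.6 CPM in the clones, with a log2-fold change of 3.47 (SE 0.87, edgeR adjusted p = 0.0335). Its value in wildtype library 3 rested on 1 read, and the call was kept in 2 of 7 fits with a library left out, being lost without wildtype library 1, 2 or 4 or without clone Ep400/1 or Ep400/2 (log2-fold changes from 3.07 to 3.89). The aldo-keto reductase gene *Akr1b8* was called lower, from 148 ± 18.6 (SD, n = 4) to 75.4 ± 15.0 CPM (SD, n = 3), with a log2-fold change of −0.98 (edgeR adjusted p = 0.0111).

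In the supply of NADPH, *G6pdx*, the first enzyme of the pentose phosphate pathway, fell in the Ep400 ko clones. It had 236, 224, 294 and 245 CPM in wildtype libraries, 233, 276 and 294 in Kat5 ko clones and 135, 156 and 107 CPM in Ep400 ko clones. The log2-fold change was −0.91 against wildtype (edgeR adjusted p = 0.0136) and −1.03 against the Kat5 ko clones (edgeR adjusted p = 0.0393), and the latter call was kept without clone Kat5/1 (−1.12) but in no other fit with a library left out (−1.17 to −0.89). The other 5 genes of this list did not pass the test.

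For thioredoxin and peroxide removal, *Osgin1*, a gene named for its induction by oxidative stress, was called higher in the Ep400 ko clones, from 10.2 ± 0.42 (SD, n = 4) to 16.4 ± 1.45 CPM (SD, n = 3), with a log2-fold change of 0.68 (edgeR adjusted p = 0.0341). *Txnrd2*, the mitochondrial thioredoxin reductase, was called lower, from 30.5 ± 4.85 to 20.1 ± 0.75 CPM (−0.60, edgeR adjusted p = 0.0488). Each of these calls was kept in 1 of 7 fits with a library left out, *Osgin1* without clone Ep400/3 and *Txnrd2* without wildtype library 3. None of the 13 partners and regulators, which include *Bach1*, *Cul3*, *Sqstm1* and the small *Maf* genes, and none of the 6 tested genes for glutathione synthesis and use was called by edgeR against wildtype in either knockout. At an unadjusted p under 0.05 there were 4 and 1 of them in the Kat5 ko clones and 3 and 3 in the Ep400 ko clones, and DESeq2 called 2 and 0 in either. Over all genes, 22.3% and 32.3% had such an unadjusted p and DESeq2 called 9.78% and 19.4%, in the Kat5 ko and Ep400 ko clones, respectively.

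**Figure D4:**
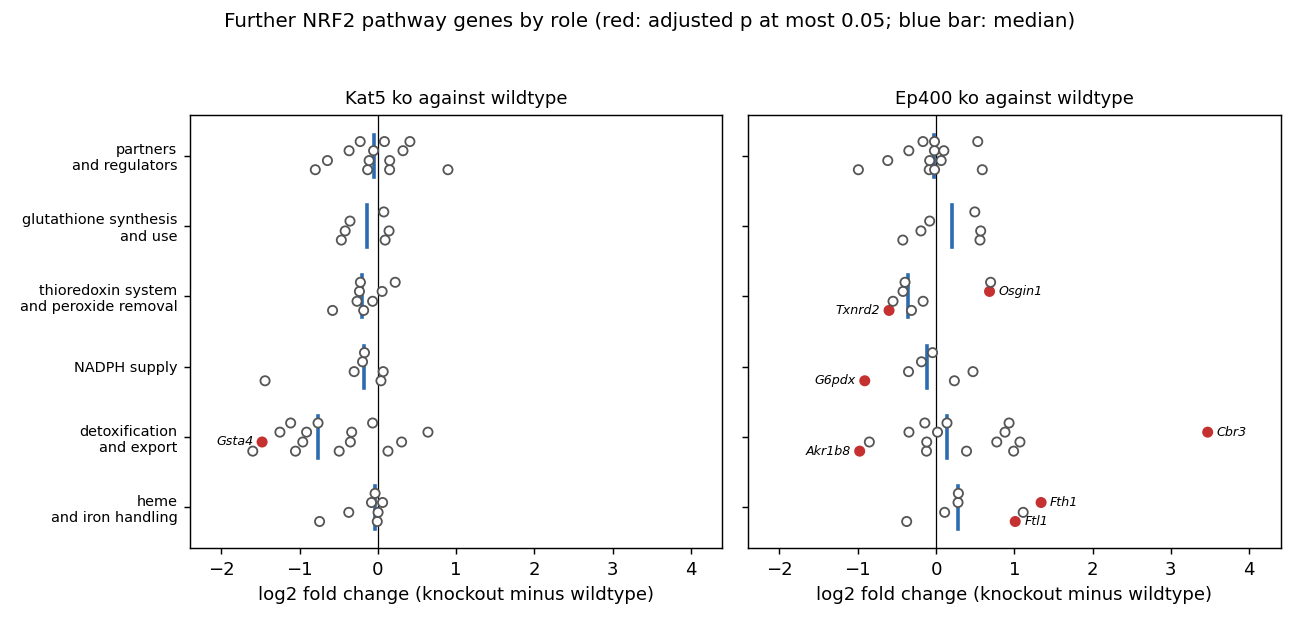
Log2-fold changes against wildtype (x axis) of 55 further pathway genes grouped by role, for Kat5 ko (left) and Ep400 ko clones (right); each point is a gene, red points are past the threshold in edgeR, and blue bars are the medians of the groups. Most genes lie near 0, the called genes are *Gsta4* on the left and 7 genes on the right, and the detoxification genes of the Kat5 ko clones have a median of −0.76.

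*Gsta4*, a glutathione S-transferase that conjugates lipid peroxidation products, was the further gene called in the Kat5 ko clones. It had 80.6, 74.9, 86.4 and 82.7 CPM in the wildtype libraries and 30.5, 30.8 and 27.9 CPM in the Kat5 ko clones, against 65.2, 94.7 and 87.1 CPM in the Ep400 ko clones. The log2-fold change in the Kat5 ko clones was −1.48 (SE 0.13, edgeR adjusted p = 0.00924), and the call was lost without wildtype library 1 (−1.48), wildtype library 4 (−1.45) or clone Kat5/3 (−1.42).

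Of the 15 detoxification genes, 12 had a log2-fold change below 0 in the Kat5 ko clones, with a median of −0.76, beside 6717 of all 13434 genes. In the direct comparison 4 of the 15 were called higher in the Ep400 ko clones, namely *Aox1* (log2-fold change 2.19), *Gstm1* (1.99), *Mgst1* (1.78) and *Gsta4* (1.45), and 1 was called lower, beside 4.34% of all genes called higher and 2.97% called lower. The transferase genes *Gstp1* (0.098, edgeR adjusted p = 0.827) and *Gstm5* (0.74, edgeR adjusted p = 0.278) overlapped between the knockouts. *Gstm1* had 145, 66.0 and 97.1 CPM in the Kat5 ko clones, 256, 341 and 651 CPM in the Ep400 ko clones and 247, 189, 196 and 239 CPM in the wildtype libraries. *Mgst1* ranged from 1.24 to 11.45 CPM in the wildtype libraries. This range covers the Kat5 ko clones, with 1.85 to 2.45 CPM, and the Ep400 ko clones, with 5.23 to 11.03 CPM. The adjusted p from edgeR between the knockouts were 0.0496 for *Aox1*, 0.0419 for *Gstm1*, 0.0482 for *Mgst1* and 0.0233 for *Gsta4*. With 1 of the 6 libraries left out, *Gstm1* and *Gsta4* stayed past the threshold only without clone Kat5/1 or Ep400/1, *Mgst1* only without clone Kat5/1 and *Aox1* in no case, with log2-fold changes of these genes from 1.33 to 2.62. *Gstm1* has close paralogs with which reads could be shared.

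The 5 genes whose levels followed *Nqo1* most closely were *Dfna5*, *Tmem200b*, *Car5b*, *4930417H01Rik* and *Pcx*, by the root mean square difference of centred log2 CPM over the 10 libraries, from 0.276 to 0.375 among 14078 genes compared. *Nqo1* itself varied by 2.71 on this scale. Of the other 8 genes, *Nfe2l2* was nearest with a difference of 0.487, at rank 57, followed by *Hmox1* with 0.617 at rank 452, whereas *Txnrd1* and *Slc7a11* were farthest with 1.11 and 1.14. *Pcx*, which encodes pyruvate carboxylase, had 42.7, 20.3, 52.1 and 41.8 CPM in wildtype libraries, 24.1, 18.2 and 37.5 CPM in Kat5 ko clones and 83.1, 67.2 and 99.1 CPM in Ep400 ko clones. The level of *4930417H01Rik* was low, from 0.0989 CPM in clone Kat5/2, the floor of 3 counts there, to 1.56 CPM in clone Ep400/2. Its place in this list thus rests on few reads.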

How the data were processed

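The authors prepared stranded poly-A libraries, sequenced paired reads on a NovaSeq instrument, mapped them to mm10 and deposited raw read counts per gene. The submitters' processing notes name STAR 2.7.3. The counting program and annotation are not given in the sources used here. The deposited tables of normalized counts were not used.

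From the counts, R 4.3.3 with edgeR 4.0.16 (filterByExpr, TMM, glmQLFit) tested each knockout against wildtype and the knockouts against each other, with Benjamini-Hochberg adjustment over all genes tested and a threshold of 0.05. DESeq2 1.42.0 was an alternative. The 9 genes were given by name, and the further genes, their roles and the markers were written from general knowledge. The rule for named genes took all 9, up to 4 called genes per role and comparison by size of change, and the 5 genes nearest to *Nqo1*. Members and lists were chosen with earlier results of these data known. Coordinates and exon lengths are those of GENCODE M21 (GRCm38, the build mm10). For each library and chromosome, the log2 differences of all genes to the average of the wildtype libraries were summarised by their median, which served as the chromosome offset of the alternative fit. No library duplicated another: within groups, chi-square values divided by their degrees of freedom were 26.1 to 239. Knockout libraries are separate clones and wildtype libraries separate samples, so p-values measure the spread between these. The wildtype samples are of the original line and are not described as clones. Their spread may therefore hold no differences between clones, and the p-values cannot separate loss of Kat5 or Ep400 from cloning and editing. Alternatives were another scaling, DESeq2, no filter, 1 fit of all libraries, a replicate block, chromosome offsets and the omission of each library. The procedure was tested on simulated data, where few of the genes changed by 1 on the log2 scale were recovered, so that an uncalled change of this size is not shown to be absent.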

Additional observations from a re-analysis of the deposited data

Results flagged for a closer look

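Among the wildtype libraries, *Hmox1* had 79.1 CPM in library 3, and its distance to the next library was 0.864 of the whole wildtype range, above the 95% critical value of Dixon's test for 4 samples. Such a distance was found for 4 of 64 genes, namely the 9 genes and the 55 further genes tested, and chance gives it in about 1 of 20 groups. All 4 stood apart through wildtype library 3. The others were *Ephx1*, an epoxide hydrolase, with 277.7 CPM (0.976), *Mafg*, a small MAF partner of NRF2, with 141.9 CPM (0.894), and *Sesn2*, a sestrin, with 82.7 CPM (0.858). They were named after their values were seen. Without wildtype library 3, 3 of the 9 and 9 further genes were called for Ep400, against 2 and 7 with it, and 0 and 1 for Kat5, as with it. Calls over all genes in these fits are not given here, so the counts do not show whether the rise was particular to these genes. Among all 14079 genes, wildtype library 3 was the lowest wildtype library for 33.9% and the highest for 33.3%.

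A test of the difference between the knockouts was past the threshold for *Nfe2l2* (log2-fold change 1.03 in Ep400 ko over Kat5 ko clones), *Fth1* (1.66), *Gsta4* (1.45), *Gstm1* (1.99), *Mgst1* (1.78), *Aox1* (2.19), *G6pdx* (−1.03) and *Abcc1* (−1.20), which encodes an exporter of glutathione conjugates. *Fth1* had 1228, 892 and 846 CPM in the Kat5 ko clones, which overlapped with the wildtype libraries, and at least 2763 CPM in the Ep400 ko clones. Genes of its chromosome 19 were shifted by a median of −0.088, −0.20 and −0.31 in the Kat5 ko clones and 0.29, 0.27 and 0.24 in the Ep400 ko clones. With a library left out, the call of *Fth1* between the knockouts was kept only without clone Kat5/1 and that of *Abcc1* only without clone Kat5/1 or Ep400/1. *Abcc1* lies outside the rule for named genes and was chosen after its values were seen.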

How the results depend on the processing

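The number of clones, 3 per knockout, limited the precision. Of the 9 genes, 0 (Kat5), 2 (Ep400) and 1 (Ep400 against Kat5) were called by edgeR, and of the further genes 1, 7 and 7. DESeq2 called 2, 3 and 3, and of the further genes 6, 13 and 16. Without a filter on low counts, 3 of the 9 genes were called between the knockouts and 3 further genes for Kat5. Between the knockouts, 3 of the 9 genes were called with library totals alone or in 1 fit of all libraries, and 17 further genes in that fit. Library totals moved the median of all genes between the knockouts from 0.0063 to 0.14, and the share of higher calls from 59.4% to 72.5%. Replicate numbers are clone numbers in the knockouts and sample numbers in wildtype cells, so the main fits did not pair libraries by them. Correlations of same-numbered libraries ranged from −0.096 to 0.22. Differently numbered libraries were not correlated for comparison, so these values do not show whether the numbers share a batch. With the replicate block, 0 of the 9 genes were called in any comparison, and 0, 0 and 1 further genes. Over all genes, edgeR called 67, 1917 and 994, the block 0, 173 and 213, DESeq2 1391, 3175 and 3013, the fit of all libraries 26, 1273 and 3539, and the test without filter 245, 2002 and 1803. DESeq2 raised the share of higher calls for Kat5 from 25.4% to 38.5%, and the block that between the knockouts from 59.4% to 82.2%. With 1 library left out, 0 to 2 (Kat5), 2 to 3 (Ep400) and 0 to 1 (between knockouts) of the 9 genes were called, and 0 to 13, 4 to 9 and 0 to 14 further genes. For Kat5, 2 of the 9 and 13 further genes were reached without clone Kat5/1, and 0 further genes without wildtype library 1 or 4 or clone Kat5/3. Calls over all genes in the fits with a library left out are not given here. The counts of those fits therefore do not show whether a change in calls was particular to these genes.

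Values that changed sign were those of uncalled genes. For Ep400, *Keap1* was −0.020 with DESeq2, −0.015 with relative log expression factors, −0.034 without filter, −0.057 with the block and −0.15 with chromosome offsets, and between −0.060 and 0.077 with 1 library left out. *Txnrd1* was −0.097 to 0.485 with 1 library left out. For Kat5, *Hmox1* was 0.019 with chromosome offsets and −0.24 to 0.29 with 1 library left out, and *Srxn1* −0.46 to 0.062. Between the knockouts, *Gclm* ranged from −0.11 to 0.31 and *Slc7a11* from −0.44 to 0.67. The cause was not tested.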
